A study of Rattus norvegicus with 8 samples.

Results

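The fibrillar collagen chains measured on the kidney arrays were Col1a1, Col1a2, Col2a1, Col3a1, Col5a1, Col5a2, Col5a3, Col11a1 and Col24a1. All probe sets to which the platform annotation gives exactly 1 of these symbols were taken, which gave 17 probe sets for the 9 chains, out of 31042 probe sets and 14217 genes measured. Col2a1 and Col11a1 had 3 probe sets each, Col1a1, Col1a2, Col5a1 and Col5a2 had 2 each, and Col3a1, Col5a3 and Col24a1 had 1 each. No filter on low values was applied, so all 17 were tested.

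Kidney RNA was taken from male Wistar rats that were 8 weeks old and had been fed either the HP diet, with 1.2% phosphorus, or the control diet, with 0.3% phosphorus, for 24 days. Both diets were based on AIN-93G, and in the HP diet potassium dihydrogen phosphate took the place of corn starch, so potassium was added with the phosphorus. There were 4 arrays for the HP group and 4 for the control group, each with the left kidney of 1 rat, and these rats had been chosen by the authors as average animals of their group, and the spread between arrays therefore reflects selected rats. All rats had eaten the control diet during 7 days of acclimatization.

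Fibrillar collagens are triple helices of intertwined chains that are secreted as procollagens, trimmed at their ends and packed side by side into fibrils. Type I and type III collagen form the bulk of the fibrils in most soft tissues, including the interstitium of the kidney, while type V collagen lies inside these fibrils and governs how they start and how thick they grow. Type II and type XI collagen are known mainly from cartilage, and type XXIV collagen mainly from developing bone.

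The values were read as log2 and come from the distribution free weighted method (DFW), which shrinks each probe set's values according to how widely they spread. Differences between diets are therefore not fold changes. The levels of different probe sets were set against each other to choose or leave out probe sets by their mean. For marker lists, levels were also averaged and differences summed over probe sets. These means and sums depend on how DFW scaled each probe set and are descriptions only. Over all 31042 probe sets the median absolute difference between diets was 1.53 millionths of a log2 unit and the median SD within diets was 2.22 millionths. Each probe set is described by its offset on each array from the mean of the 4 control arrays, by the HP minus control difference and limma's standard error (SE), and by a standardized difference in units of the pooled SD within diets. A probe set passed at an adjusted p (limma, Benjamini-Hochberg over all 31042 probe sets) under 0.05. The smallest p of the exact two-sided permutation test over the 70 arrangements of 4 and 4 arrays is 0.029.

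In the HP group, 10 of the 17 probe sets rose, where 2.95% of all probe sets did, and none passed in the other direction, where 1.13% of all did. These 10 covered 6 chains, namely all chains of type I, III and XXIV collagen and the Col5a1 and Col5a2 chains of type V collagen. In limma at an unadjusted p under 0.05, 12 of the 17 were higher and 0 were lower. The share of all probe sets at an unadjusted p under 0.05 was not counted, so this count and those of the lists below have no background beside them. Rank products called 12 of the 17 higher and 0 lower, where it called 3.4% of all probe sets higher and 2.3% lower. The median standardized difference was 3.61 over the 17 probe sets and -0.21 over all probe sets. Several of these chains had been named by the study from the same arrays, so their count is no independent evidence of the direction. In whole kidney RNA, more cells of a type and more RNA per cell cannot be told apart.

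**Figure D1:**
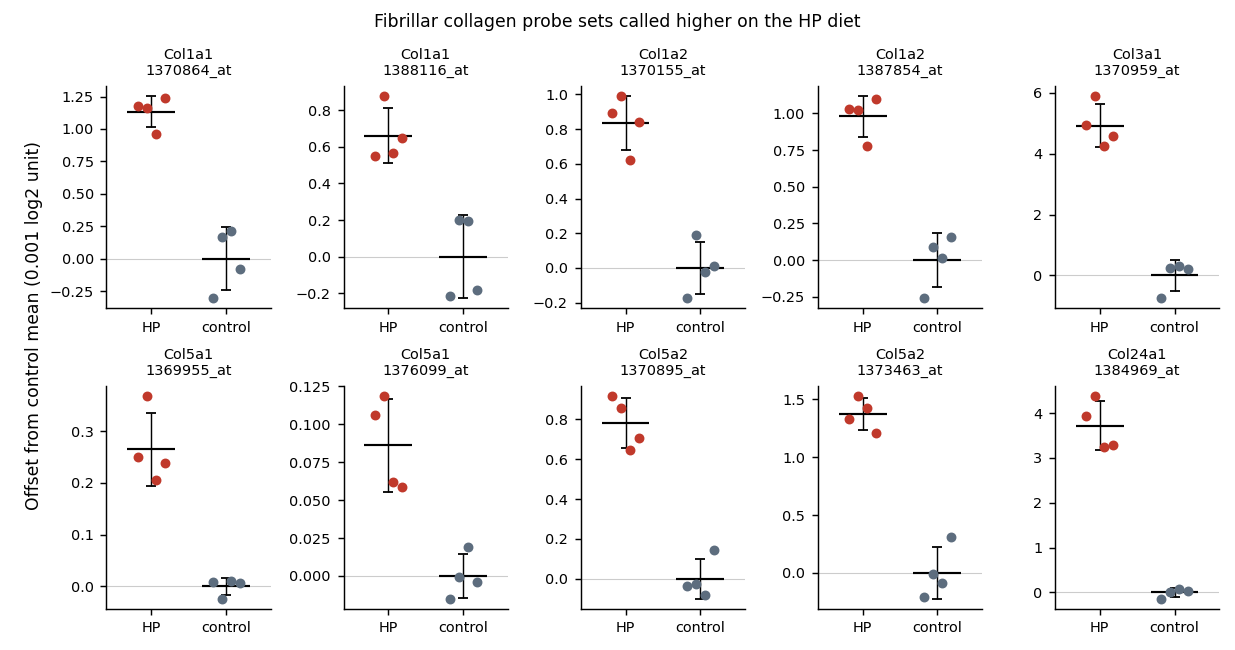
Offset of each array from the control mean, in thousandths of a log2 unit, for the 10 probe sets that passed, with the 4 HP arrays left of the 4 control arrays, horizontal lines for the group means and error bars for the SD (n = 4). The lowest HP array lies above the highest control array in each of the 10 panels, with the widest distances for Col3a1 and Col24a1.

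RefSeq promoter sequences, 250 bases before to 50 bases after the annotated gene start on the GRCr8 assembly, matched 6 of the 9 chains (Col1a2, Col5a1, Col5a2, Col5a3, Col11a1 and Col24a1). For Col1a2 the 50 bases after this start open with atg, so the annotated start may be that of the coding sequence rather than of the RNA. Its window may then not be placed like those of the other chains. Col1a2, Col5a2 and Col24a1 are shown because they are a type I, a type V and a type XXIV chain that rose together, with the motif CCAAT, the TATA motif TATAAA and the GC-rich motif GGGCGG in capitals where they occur on either strand (capital ATTGG is the reverse complement of CCAAT). The windows are chr4:33518307-33518606 (plus strand) for Col1a2, chr9:55090102-55090401 (minus strand) for Col5a2 and chr2:236872333-236872632 (plus strand, the outermost of 3 annotated starts) for Col24a1.
Col1a2: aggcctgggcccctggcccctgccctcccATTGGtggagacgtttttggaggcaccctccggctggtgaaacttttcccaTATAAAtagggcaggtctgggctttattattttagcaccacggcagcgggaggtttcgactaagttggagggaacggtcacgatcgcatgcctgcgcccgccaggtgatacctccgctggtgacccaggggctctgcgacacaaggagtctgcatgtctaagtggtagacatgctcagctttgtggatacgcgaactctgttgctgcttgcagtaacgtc
Col5a2: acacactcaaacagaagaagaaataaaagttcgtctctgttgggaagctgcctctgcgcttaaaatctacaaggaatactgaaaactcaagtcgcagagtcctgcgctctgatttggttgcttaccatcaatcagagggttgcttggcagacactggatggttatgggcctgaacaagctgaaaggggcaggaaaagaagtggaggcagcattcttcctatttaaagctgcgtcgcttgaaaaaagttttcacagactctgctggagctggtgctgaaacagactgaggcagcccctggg
Col24a1: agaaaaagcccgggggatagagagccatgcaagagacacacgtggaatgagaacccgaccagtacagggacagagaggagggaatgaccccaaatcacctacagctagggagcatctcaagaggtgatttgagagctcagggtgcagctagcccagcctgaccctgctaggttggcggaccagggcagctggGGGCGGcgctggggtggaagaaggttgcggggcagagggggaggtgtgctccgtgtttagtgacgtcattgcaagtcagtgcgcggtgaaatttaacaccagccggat
The Col1a2 window held 1 CCAAT and 1 TATAAA, the Col24a1 window 1 GGGCGG, and the Col5a2 window none of the 3 motifs. Of the chains not shown, Col5a1 had 1 GGGCGG, Col5a3 had 1 CCAAT and 3 GGGCGG, and Col11a1 had 2 CCAAT and 3 GGGCGG, and no matches overlapped. On either strand, CCAAT was present in 37.5%, TATAAA in 14.2% and GGGCGG in 33.1% of all 33469 promoters of this length, and a match is no more than a description of the letters.

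Col1a1 codes for the alpha 1 chain of type I collagen, which supplies most of the chains of each type I molecule. For probe set 1370864_at the offsets were 1.18, 1.16, 0.959 and 1.24 thousandths of a log2 unit on HP replicates 1 to 4, against -0.306, 0.171, 0.214 and -0.0785 thousandths on control replicates 1 to 4. The HP arrays lay close together, and the lowest of them was 0.745 thousandths above the highest control array. The difference was 1.13 ± 0.127 thousandths (SE, n = 4 each), or 5.94 as a standardized difference (adjusted p = 0.0093 by limma).

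The second Col1a1 probe set, 1388116_at, had offsets of 0.553, 0.879, 0.567 and 0.647 thousandths on the HP arrays, against -0.214, 0.199, 0.196 and -0.181 thousandths on the control arrays. The groups did not overlap here either, and the distance between them was 0.354 thousandths. Its difference of 0.661 ± 0.129 thousandths (SE, n = 4 each), or 3.42 as a standardized difference, passed by a small margin (adjusted p = 0.043 by limma). This call was lost whichever of the 8 arrays was left out, with adjusted p values of 0.065 to 0.092.

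Col1a2 codes for the alpha 2 chain, the partner of Col1a1 in type I collagen. Probe set 1387854_at had offsets of 1.03, 1.02, 0.779 and 1.10 thousandths on the HP arrays, against -0.261, 0.0895, 0.0138 and 0.158 thousandths on the control arrays. Probe set 1370155_at had offsets of 0.891, 0.992, 0.623 and 0.839 thousandths on the HP arrays, against -0.176, 0.188, -0.0229 and 0.0106 thousandths on the control arrays. In both, HP replicate 3 was the lowest HP array and control replicate 1 the lowest control array. The differences were 0.981 ± 0.108 and 0.836 ± 0.102 thousandths (SE, n = 4 each), which are standardized differences of 6.02 and 5.48 (adjusted p = 0.0089 and 0.012 by limma). Both calls were made in all 8 fits that left out 1 array.

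Col3a1 codes for the only chain of type III collagen, which is abundant in young and in repairing connective tissue. Its single probe set, 1370959_at, had offsets of 4.94, 5.91, 4.27 and 4.58 thousandths on the HP arrays, against -0.755, 0.241, 0.310 and 0.205 thousandths on the control arrays. The lowest HP array stood 3.96 thousandths above the highest control array, while control replicate 1 stood apart below the other control arrays. The difference of 4.92 ± 0.410 thousandths (SE, n = 4 each), or 8.00 as a standardized difference (adjusted p = 0.0051 by limma), was at rank 51 of all 31042 probe sets by standardized difference. Without control replicate 1 the standardized difference was 8.49 (adjusted p = 0.018 by limma).

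Col5a1 codes for the alpha 1 chain that nearly all type V molecules contain. Probe set 1369955_at had offsets of 0.25, 0.368, 0.206 and 0.238 thousandths on the HP arrays, against 0.00749, -0.0238, 0.0105 and 0.0058 thousandths on the control arrays. Probe set 1376099_at had offsets of 0.106, 0.118, 0.0616 and 0.0585 thousandths on the HP arrays, against -0.0149, -0.00073, 0.0194 and -0.00374 thousandths on the control arrays. HP replicate 2 was the highest array in both, and in neither did the groups overlap. The differences were 0.266 ± 0.0342 thousandths (adjusted p = 0.014 by limma) and 0.0861 ± 0.0159 thousandths (adjusted p = 0.037 by limma), with standardized differences of 5.17 and 3.61 (SE, n = 4 each). The call of 1376099_at was kept in 2 of the 8 fits that left out 1 array (adjusted p = 0.043 to 0.095), and that of 1369955_at in all 8.

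Col5a2 codes for the alpha 2 chain that joins Col5a1 in the common form of type V collagen. Probe set 1373463_at had offsets of 1.33, 1.53, 1.43 and 1.21 thousandths on the HP arrays, against -0.212, -0.0123, -0.0863 and 0.311 thousandths on the control arrays. Probe set 1370895_at had offsets of 0.917, 0.856, 0.646 and 0.708 thousandths on the HP arrays, against -0.0378, -0.0250, -0.0825 and 0.145 thousandths on the control arrays. Control replicate 4 was the highest control array in both, below all HP arrays. The differences were 1.37 ± 0.123 and 0.782 ± 0.0758 thousandths (SE, n = 4 each), with standardized differences of 7.42 and 6.87 (adjusted p = 0.0060 and 0.0067 by limma). In the RefSeq annotation Col3a1 and Col5a2 are neighbours on chromosome 9, with 0 annotated genes between them.

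Col5a3, the third type V chain, did not pass. Its probe set 1368347_at had offsets of -1.03, 2.77, 4.72 and 0.0388 millionths of a log2 unit on the HP arrays, against -1.56, 1.88, -2.15 and 1.83 millionths on the control arrays, so that the groups overlapped. The standardized difference was 0.68 (adjusted p = 0.67 by limma).

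Col24a1, a chain of the vertebrate fibrillar family that assembles with itself, had the largest standardized difference of the 17 probe sets. Offsets of probe set 1384969_at were 3.95, 4.38, 3.25 and 3.29 thousandths on the HP arrays, against -0.139, 0.0116, 0.0852 and 0.0424 thousandths on the control arrays. The 4 control arrays lay within a narrow band, and the lowest HP array was 3.17 thousandths above it. The difference was 3.72 ± 0.260 thousandths (SE, n = 4 each), or 9.54 as a standardized difference (adjusted p = 0.0038 by limma), at rank 19 of all 31042 probe sets. It was between 8.71 and 13.6 when 1 array was left out, and the call was made in all 8 such fits. With means of 6.308 on the HP arrays and 6.304 on the control arrays, the probe set lay in the lowest 25% of probe sets. The fit without these therefore could not test it.

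Col11a1, the alpha 1 chain of type XI collagen, had 3 probe sets, and none passed in limma. Probe set 1392915_at had offsets of 53.7, 38.8, 20.4 and 61.5 millionths on the HP arrays, against -4.25, 6.34, -16.1 and 14.0 millionths on the control arrays, and was thus 1 of the 11 member probe sets in which every HP array was above every control array, as in 7.09% of all probe sets. Every HP array was below every control array in none of the 17, and in 5.81% of all probe sets. Its difference was 43.6 ± 10.5 millionths (SE, n = 4 each), or 2.76 as a standardized difference (adjusted p = 0.078 by limma). It passed in limma without HP replicate 3 (adjusted p = 0.049), and in rank products with a false discovery rate (FDR) of 0.035.

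For Col11a1 probe set 1384211_at the offsets were 79.7, 40.3, 30.2 and 88.3 millionths on the HP arrays, against -15.8, 1.90, -24.6 and 38.5 millionths on the control arrays. HP replicate 3 fell within the range of the control arrays. The difference was 59.6 ± 18.8 millionths (SE, n = 4 each), or 2.11 as a standardized difference (adjusted p = 0.15 by limma, FDR = 0.036 by rank products). The third probe set, 1384931_at, had a standardized difference of 0.20 (adjusted p = 0.92 by limma), with offsets between -1.22 and 2.23 millionths on the HP arrays and between -3.98 and 2.50 millionths on the control arrays.

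Col2a1, the only chain of type II collagen, the main collagen of cartilage, gave no call. Its 3 probe sets overlapped between the diets, and their standardized differences were -1.87 for 1371226_at, -1.17 for 1395280_at and 0.21 for 1387767_a_at (adjusted p = 0.40, 0.45 and 0.92 by limma). The offsets of 1371226_at were -0.142, -0.661, -0.799 and -0.939 millionths on the HP arrays, against -0.322, -0.247, 0.274 and 0.296 millionths on the control arrays. The other fibrillar chains on the array, Col11a2 and Col27a1, had standardized differences of -0.84 and -1.53 and did not pass either (adjusted p = 0.58 and 0.28 by limma).

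**Figure D2:**
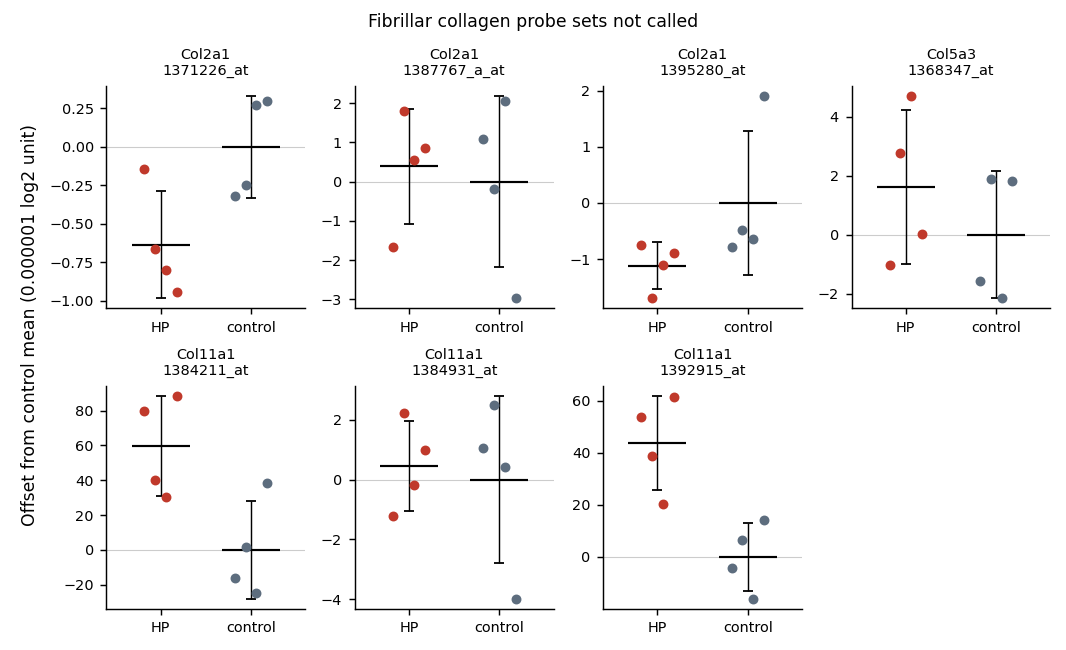
Offset of each array from the control mean, in millionths of a log2 unit, for the 7 probe sets that did not pass, with the 4 HP arrays left of the 4 control arrays, horizontal lines for the group means and error bars for the SD (n = 4). The groups overlap in 6 of the panels, and Col11a1 1392915_at is the exception.

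Whether the probe sets of a chain agreed was tested in all 10 pairs of probe sets of the same chain. Each probe set was first divided by its own SD over the 8 arrays, and the difference between the diet shifts of the pair was set against all 70 arrangements of the arrays (exact permutation test, two-sided). No pair passed the threshold, with p values from 0.2 to 1 and adjusted p values from 0.857 to 1 over the 10 pairs. The scaled shifts were 1.80 for 1370864_at and 1.67 for 1388116_at of Col1a1 (exact p = 0.6), 1.80 and 1.78 for the pair of Col1a2 (exact p = 0.914), 1.77 and 1.69 for that of Col5a1 (exact p = 0.686) and 1.82 and 1.81 for that of Col5a2 (exact p = 1). Because the SD over all 8 arrays includes the diet shift, no scaled shift can exceed 1.87 with 4 and 4 arrays, so clearly separated probe sets come out alike on this scale whatever their size. The smallest exact p is 0.029, and with 10 pairs at least 6 would have to reach it for any to pass after adjustment, so that the test had little power to find a single pair that disagreed. In chains without a call the distances varied. They were wide between -1.37 for Col2a1 1371226_at and 0.22 for 1387767_a_at (exact p = 0.229). The same held for 0.22 for Col11a1 1384931_at and 1.58 for 1392915_at (exact p = 0.2). Col11a1 1384211_at and 1392915_at lay closer, at 1.44 and 1.58 (exact p = 0.514), as did Col2a1 1371226_at and 1395280_at, at -1.37 and -1.05 (exact p = 0.629). Since the limit of 1.87 holds separated probe sets together, these distances cannot compare chains with and without a call.

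**Figure D3:**
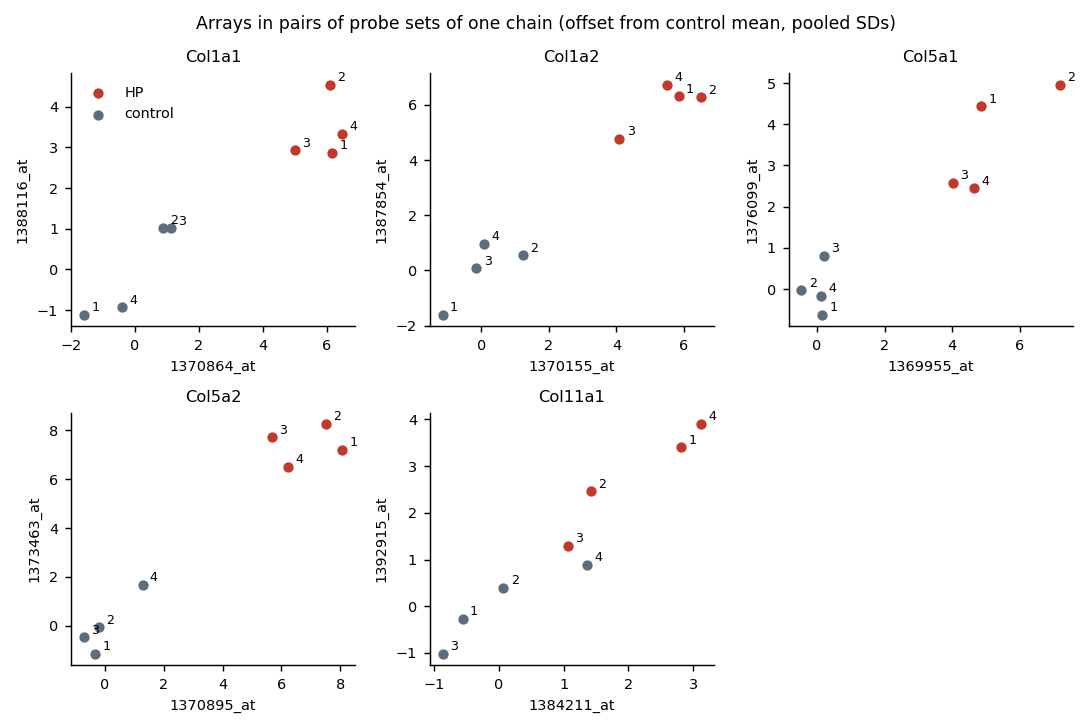
Offset of each array from the control mean in units of the pooled SD within diets, for pairs of probe sets of the same chain, with HP and control arrays marked. HP arrays lie to the upper right of the control arrays in the pairs of Col1a1, Col1a2, Col5a1 and Col5a2, and HP replicate 3 overlaps the control arrays on 1 axis of the Col11a1 pair.

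Agreement on the call itself was described across the whole array. Of the 6 chains with several probe sets, 4 had at least 1 that passed, and in each of these 4 (Col1a1, Col1a2, Col5a1 and Col5a2) both probe sets passed. The number was 2 (Col1a2 and Col5a2) when control replicate 1, 2, 3 or 4 or HP replicate 1 or 2 was left out, and 3 without HP replicate 3 or 4, when Col1a1 was lost. It was 1 after quantile normalization and 0 after median centring. Among all genes with exactly 2 probe sets of which at least 1 passed as higher, both passed in 35 of 163 (21.5%), these 4 chains included. The size of the difference was less alike than the call: the larger difference of a pair was 1.17 times the smaller for Col1a2, 1.72 times for Col1a1, 1.76 times for Col5a2 and 3.08 times for Col5a1, and DFW scales each probe set by its own spread.

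The order of the rats within each diet was compared as well, over the 12 pairs of arrays that share a diet. Col1a1, Col1a2, Col5a1 and Col5a2 each had 8 of the 12 array pairs in the same order on their probe sets, where the median over all 9597 pairs of probe sets of the same gene was 7. Col11a1 1384211_at and 1392915_at put all 12 array pairs in the same order. Between chains, Col3a1 shared the order of 11 array pairs with Col24a1 and of 11 with Col5a1 1376099_at. Over the 45 pairs of the probe sets that passed the median was 8 (4 to 11), and over the 418155 pairs of all probe sets called higher it was 7. These counts are descriptions, since all probe sets share the same 8 arrays.

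Single rats recurred at the ends of the groups. HP replicate 2 was the highest HP array in 7 of the 10 probe sets that passed, and it was so in 61.3% of all 915 probe sets called higher. HP replicate 3 was the lowest HP array in 7 of the 10, against 38.0% of the 915, and control replicate 1 was the lowest control array in 8 of the 10, against 22.6% of the 915. Without HP replicate 2, 8 member probe sets passed as higher, without HP replicate 3 the number was 10, with Col11a1 1392915_at in place of Col1a1 1388116_at, and without control replicate 1 it was 8.

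Rescaling the arrays changed more calls than leaving out single rats did. The medians of the 8 arrays spanned 0.185 thousandths and were on average 0.0611 thousandths higher in the HP group, which is close to the smaller diet differences of the chains. The diet difference of a typical probe set was far smaller, with a median of -0.224 millionths over all probe sets. Median centring thus lowered every diet difference by 0.0611 thousandths, so that positive differences under this size turned negative. When each array was centred on its median, Col3a1 and Col24a1 passed, with standardized differences of 8.29 and 9.80 (adjusted p = 2.5e-14 and 1.3e-07 by limma). The other 8 probe sets were still higher in the HP group, with standardized differences between 0.41 for Col5a1 1376099_at and 7.10 for Col5a2 1373463_at, but none passed (adjusted p = 0.98), and of all probe sets 0.251% were called higher and 0.0612% lower. The standardized difference uses the probe set's own SD, whereas limma's p uses an SD drawn towards those of all probe sets. A large standardized difference therefore need not pass, and centred values were not fitted without this moderation.

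After quantile normalization 6 of the 10 passed, where 1.02% of all probe sets were called higher and 24.9% lower. These were Col1a1 1370864_at and 1388116_at, Col1a2 1387854_at, Col3a1, Col5a2 1373463_at and Col24a1. Col5a2 1370895_at did not pass (standardized difference 2.23, adjusted p = 0.065 by limma). Col1a2 1370155_at and both Col5a1 probe sets held the same rank on all 8 arrays, so that this normalization gave them the same value throughout, as it did for 35.9% of all probe sets. Col2a1 1371226_at then passed as lower in the HP group (standardized difference -5.27, adjusted p = 0.0013 by limma).

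**Figure D4:**
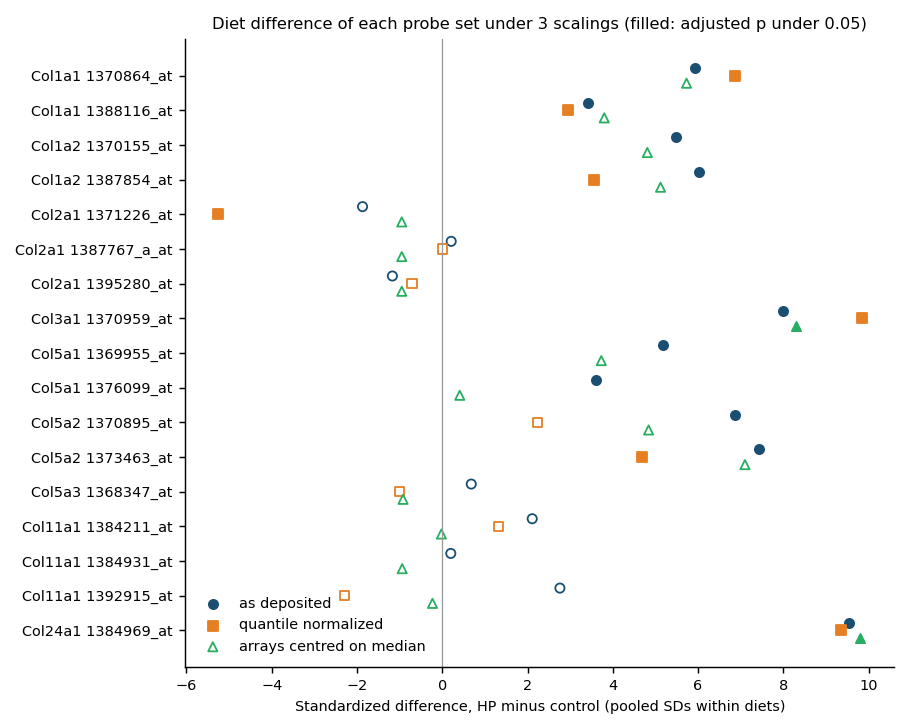
Standardized difference (HP minus control) of each member probe set as deposited, after median centring and after quantile normalization, without the 4 probe sets that quantile normalization made constant. Col3a1 and Col24a1 lie at 8.00 and 9.54 as deposited and stay above 8 under both rescalings.

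Genes that make, fix and break down collagen fibrils were described from lists, with each gene represented by its probe set of highest mean. Of 70 entries 57 were measured, of which 20 rose and 1 fell in the HP group, with a median standardized difference of 1.46, where the median was -0.21 over all probe sets. As deposited all 20 were higher, but 7 of them had the opposite sign after quantile normalization (P3h3, Loxl3, Col12a1, Col14a1, Col16a1, Itgb1 and Mmp14) and 7 after median centring (Plod1, Loxl3, Col12a1, Col14a1, Col16a1, Sparc and Itga1). The number that still passed as higher was 7 after quantile normalization and 3 after median centring, and 4 of the 20 passed as lower after quantile normalization (Loxl3, Col12a1, Col16a1 and Itgb1). Of these, Loxl3, Col12a1 and Itgb1 then had standardized differences of -1.67e+10, -1.78e+10 and -1.13e+12, and Dcn, among the higher, 1.62e+12. Quantile normalization left 49.1% of all probe sets constant within both diets. The calls of Loxl3, Col12a1, Itgb1 and Dcn thus had almost no spread to be judged by. When 1 array was left out, 8 list genes passed as higher without control replicate 1, 11 without control replicate 2 or HP replicate 1, 12 without control replicate 3 or 4, 13 without HP replicate 2, 17 without HP replicate 3 and 16 without HP replicate 4.

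Among the crosslinking enzymes, which join neighbouring collagen molecules, 3 of 4 measured genes rose, and the list's median standardized difference was 5.48. Lox, the first enzyme of this family, had a difference of 2.89 ± 0.317 thousandths (SE, n = 4 each) and a standardized difference of 6.06 (adjusted p = 0.0089 by limma), and it passed under both rescalings. Its relatives Loxl1 and Loxl3 had standardized differences of 6.70 and 4.89 (adjusted p = 0.0068 and 0.018 by limma), with the sign of Loxl3 turned under both rescalings. Loxl2 was at 1.67 (adjusted p = 0.24 by limma). The second Lox probe set, 1368172_a_at, also rose (6.49, adjusted p = 0.0072 by limma).

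Of 13 measured proteins and collagens of the fibril surface, 7 rose, with a list median of 3.53. Fn1, fibronectin, on which collagen fibrils assemble, had a standardized difference of 7.47 (adjusted p = 0.0059 by limma) and passed under both rescalings. The small proteoglycans Bgn (biglycan) and Dcn (decorin) had standardized differences of 7.35 and 6.84 (adjusted p = 0.0060 and 0.0067 by limma), whereas Lum (lumican) was at 1.29 (adjusted p = 0.36) and Fmod (fibromodulin) at -0.15 (adjusted p = 0.94). The number that rose was 3 without control replicate 1, 4 without control replicate 2, 3 or 4 or HP replicate 2, and 5 or 6 when any other array was left out. After quantile normalization 2 genes of this list passed as higher and 4 as lower, and after median centring 1 passed as higher. Among the calls after quantile normalization, those of Dcn (higher) and Col12a1 (lower) had almost no spread within the diets to be judged by.

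The chain-modifying and folding machinery had a median standardized difference of 1.31. Of its 15 measured genes 3 rose, namely Plod1, a lysyl hydroxylase, P3h3, of the prolyl hydroxylase family, and Serpinh1, the collagen chaperone HSP47, with standardized differences of 4.44, 4.01 and 3.68 (adjusted p = 0.022, 0.028 and 0.035 by limma). The prolyl hydroxylase subunits P4ha1, P4ha2 and P4ha3 were between -1.77 and -1.12, and none passed. The number that rose was 0 without control replicate 1, 2 or 4 or HP replicate 1 or 2, 1 without control replicate 3, 2 without HP replicate 3 or 4, and 0 under both rescalings. The other Serpinh1 probe set, 1369009_at, was at 0.09 (adjusted p = 0.97). Of 2 measured genes of propeptide processing, Pcolce, which enhances the removal of the C-terminal end, rose (3.98, adjusted p = 0.029 by limma), while Bmp1, the protease that removes it, was at 2.92 (adjusted p = 0.069). The Pcolce call was lost under both rescalings, without moderation, and when any array other than HP replicate 3 or 4 was left out.

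On the side of breakdown, 4 of 9 measured genes rose and 1 fell. Mmp2, a gelatinase, Mmp14, a membrane-bound collagenase, and the inhibitors Timp1 and Timp2 were the 4 that rose, with standardized differences of 7.58, 4.42, 6.84 and 4.11. The second probe sets of Mmp2 and Timp2 were at 0.6 and -0.51 (adjusted p = 0.72 and 0.79 by limma), and that of Mmp14 at 3.51 (adjusted p = 0.04). Timp3, another inhibitor, fell (-4.82, adjusted p = 0.018 by limma), also on probe set 1368989_at (-4.96, adjusted p = 0.016). Timp3 probe sets 1372926_at and 1375138_at were at -1.67 and -1.31 (adjusted p = 0.24 and 0.36 by limma, FDR = 0.035 and 0.0068 by rank products). After quantile normalization the difference of the Timp3 probe set of highest mean was 0. The interstitial collagenases Mmp13 and Mmp8 were at -0.88 and 1.02 and did not pass (adjusted p = 0.60 and 0.49). Without control replicate 1 or HP replicate 1, 2 genes of this list rose, and the fall of Timp3 was lost without either of these arrays and without control replicate 3. Among 5 measured collagen receptors, Itgb1 and Itga1, subunits of integrins that bind collagen, rose (6.50 and 3.32, adjusted p = 0.0072 and 0.047 by limma). The receptor kinases Ddr1 and Ddr2 were at 2.95 and -0.32 (adjusted p = 0.065 and 0.87). The number of receptors that rose was 1 when any array other than control replicate 4 was left out, and 0 under both rescalings.

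For 9 measured genes of TGF-beta control, a pathway known to induce collagen transcription, the probe set of highest mean passed in limma in neither direction, with 1 higher and 1 lower at an unadjusted p under 0.05 and 0 in rank products. Tgfb1, Tgfb2 and Tgfb3, the ligands, were at 1.26, -0.38 and 0.52 (adjusted p = 0.38, 0.83 and 0.75 by limma). The second Tgfb2 probe set, 1387172_a_at, was at 2.54, with every HP array above every control array (adjusted p = 0.098 by limma, FDR = 0.31 by rank products). The study counted Tgfb2 among its upregulated genes. Tgfbr1, a receptor, was at 3.17 (adjusted p = 0.054), and it passed as higher with array weights, with the lowest 25% of probe sets left out, with 1 probe set per gene and without HP replicate 2 (adjusted p = 0.047, 0.045, 0.039 and 0.019 by limma). Smad7, an inhibitor, was at -1.69 (adjusted p = 0.24), and Ccn2, a target, at 0.19 (adjusted p = 0.93). Tgfb3 passed as lower after quantile normalization (adjusted p = 0.0035 by limma).

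**Figure D5:**
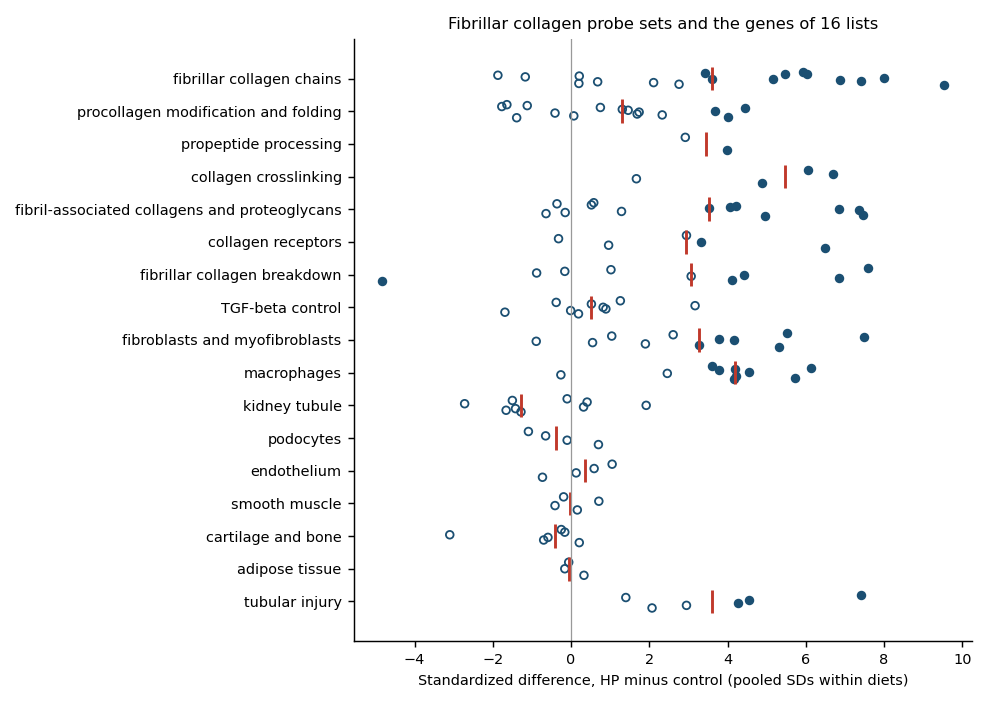
Standardized difference (HP minus control) of the 17 fibrillar collagen probe sets (top row) and of each measured gene in 16 lists, with filled points where limma's adjusted p was under 0.05 and a red bar at each median. Medians run up to 5.48 in the crosslinking enzymes, while the kidney tubule markers lie around -1.28.

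Some markers of fibroblasts, macrophages and tubular injury also rose in the HP group. Of 11 measured markers of fibroblasts and myofibroblasts 6 rose, and their mean level was 7.74198 to 7.74227 on the HP arrays, against 7.74129 to 7.74141 on the control arrays. Vim (vimentin) made up 78.0% of the summed difference of this list. This share adds differences that DFW scaled by each probe set's own spread, so it is not a share of RNA. Without Vim the mean level was 7.52733 to 7.52741 on the HP arrays, against 7.52716 to 7.52722 on the control arrays. The number that rose was 3 without control replicate 1, 2 or 3 or HP replicate 1, 2 or 4, 4 without control replicate 4 and 5 without HP replicate 3, and it was 3 after quantile normalization and 1 after median centring. The fibroblast markers that rose were Pdgfra, Vim, S100a4, Postn, Cspg4 and Tagln, with the sign of Cspg4 turned under both rescalings, and Acta2, the smooth muscle actin of myofibroblasts, was at 1.04 (adjusted p = 0.47 by limma).

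Of 10 macrophage markers 8 rose (Cd68, Aif1, Csf1r, Adgre1, Cd14, Mrc1, Mpeg1 and Lyz2), with a mean level of 7.85512 to 7.85606 on the HP arrays, against 7.85392 to 7.85408 on the control arrays. This count was 2 without control replicate 2 or 3 or HP replicate 1, 3 without control replicate 1 or 4, 4 without HP replicate 3, 7 without HP replicate 2 and 8 without HP replicate 4, and it was 7 after quantile normalization and 4 after median centring. Itgam and Cd163 were at 2.46 and -0.26 (adjusted p = 0.11 and 0.90 by limma). The other Aif1 probe set, 1369489_at, was at -2.26, with every HP array below every control array (adjusted p = 0.14 by limma). The other Mpeg1 probe set, 1369427_at, was at 1.08 (adjusted p = 0.45 by limma). Of 6 markers of tubular injury 3 rose (Havcr1, Clu and Krt8), with a mean level of 8.12254 to 8.15427 on the HP arrays, against 8.06116 to 8.0687 on the control arrays. Havcr1, the kidney injury molecule of the proximal tubule, made up 95.4% of the summed difference of this list. This is not a share of RNA either, because of the DFW scale. Without Havcr1 the mean level was 8.36489 to 8.36666 on the HP arrays, against 8.36111 to 8.36302 on the control arrays. Of the injury markers 1 rose without control replicate 1 or 2 or HP replicate 1, 2 rose without control replicate 3 or 4 or HP replicate 2, and 2 rose under either rescaling. The part of fibroblasts, macrophages and injured tubules in the collagen differences was not tested.

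Of 9 markers of the kidney tubule none passed in limma, with 0 higher and 2 lower at an unadjusted p under 0.05 and 0 in rank products, and their mean level was 11.8782 on all 8 arrays. Slc34a1, a phosphate transporter of the proximal tubule, was at -1.50 (adjusted p = 0.31) on its probe set of highest mean. Its other probe set, 1370610_at, was at -3.03, with every HP array below every control array (adjusted p = 0.060 by limma, FDR = 0.017 by rank products). Of 6 measured markers of cartilage and bone, where type II, XI and XXIV collagen are known to be made, none passed in limma either, with 0 higher and 1 lower at an unadjusted p under 0.05, and rank products called 1 lower. Matn1 (matrilin 1), a cartilage protein, had the smallest p of these, at -3.10 (adjusted p = 0.057 by limma), with every HP array below every control array. It passed as lower in limma with array weights, after quantile normalization, with the lowest 25% of probe sets left out, with 1 probe set per gene and without HP replicate 2 (adjusted p = 0.049, 0.0024, 0.048, 0.042 and 0.033). The median standardized difference of the list was -0.42, with Acan (aggrecan) at -0.25, Ibsp (bone sialoprotein) at -0.70 and Bglap (osteocalcin) at 0.21. On the probe set of highest mean, no marker of podocytes (4 measured), endothelium (4), smooth muscle (4) or adipose tissue (3) passed in limma, with 0 at an unadjusted p under 0.05 and 0 in rank products. The other probe set of the podocyte marker Nphs1, 1369154_at, was at -2.57, with every HP array below every control array (adjusted p = 0.11 by limma, FDR = 0.94 by rank products).

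The genes whose values followed a chain most closely over the 8 arrays were looked for among the single-gene probe sets of other genes, starting from the chain's probe set of highest mean, as a description in which the arrays share the diet shift. For Col3a1 they were Lpxn, Cpe and Slc66a3, with Pearson's r of 0.998, 0.995 and 0.995 over 8 arrays. For Col1a1 they were Nid1, Fblim1 and Rab27a (0.988, 0.986 and 0.986 over 8 arrays), and for Col1a2 Marcks, Myl12b and Rab27a (0.992, 0.991 and 0.989 over 8 arrays).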

How the data were processed

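Kidney RNA was hybridized to Affymetrix whole-genome rat arrays. The authors quantified the scans of all 8 arrays together with DFW, and the deposited values are on a log2 scale as read here, since the base is not given in the sources used here. Groups came from the diet in the labels, and 1 array is 1 rat.

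The 57 Affymetrix controls were left out. Limma 3.58.1 in R 4.3.3 (lmFit and eBayes, prior degrees of freedom 0.772) was fitted to the other 31042 probe sets, with Benjamini-Hochberg adjustment over all of them. Rank products, the test of the study's methods, used 16 pairs of arrays and 1000 permutations over 31099 probe sets, with an FDR under 0.05. Python 3.11.15, numpy 2.4.6, pandas 2.3.3 and matplotlib 3.10.9 were used for the other steps, and limma was tested on simulated data.

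The platform table gives 1 gene for 20826 probe sets, several for 436 and none for 9780. The lists used the probe set with the highest mean of each gene, and 116 of 133 entries were measured. All member probe sets are named, with up to 3 genes of each list, those with the smallest p, and the 3 genes closest to Col1a1, Col1a2 and Col3a1. Other list genes were named after their values were seen. The members and lists were chosen with earlier results of these data known. Alternatives were no moderation, trend and robust moderation, array weights, the replicate number as a block, quantile normalization, median centring, the lowest 25% of probe sets left out, 1 probe set per gene, rank products and each array left out in turn.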

Additional observations from a re-analysis of the deposited data

Results flagged for a closer look

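In each group of 4 arrays, an array was taken as standing apart where its gap to the nearest other array exceeded Dixon's 95% critical value as a share of the group's whole range. This was checked for the 34 groups of the 17 probe sets and picked out 3, where chance alone picks about 5% of groups. For Col3a1 1370959_at, control replicate 1 was the lowest control array, with a gap of 0.902 of the range, and without it the standardized difference was 8.49 (adjusted p = 0.018 by limma). For Col5a1 1369955_at, control replicate 2 was the lowest control array, with a gap of 0.863 of the range, and without it the standardized difference was 4.69 (adjusted p = 0.048 by limma). For Col2a1 1395280_at, control replicate 4 was the highest control array, with a gap of 0.889 of the range, and without it the standardized difference was -1.43 (adjusted p = 0.59 by limma). A different control rat stood apart in each of the 3 probe sets.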

How the results depend on the processing

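The number of member probe sets that passed as higher was 10 as deposited, 3 with the replicate number as a block, 6 after quantile normalization, 2 after median centring, 6 of 9 with 1 probe set per gene and 8 to 10 when 1 array was left out. With the lowest 25% of probe sets left out it was 9 of 13, and Col24a1 was not among the 13. The number that passed as lower was 0 as deposited and 1 after quantile normalization (Col2a1 1371226_at). Every HP array was above every control array in 11 probe sets as deposited, 6 after quantile normalization, 9 after median centring and 11 to 12 when 1 array was left out. No pair of probe sets of the same chain passed under any alternative run, where a single pair could not have passed after adjustment over 10 pairs. The smallest adjusted p (exact permutation test) was 0.143 over 10 pairs after median centring, 0.171 over 6 pairs after quantile normalization and 0.286 over 10 pairs without control replicate 4. These runs therefore cannot show that the pairs agreed.

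The sign of the standardized difference turned only in probe sets that had not passed. After median centring it was -0.95 for Col2a1 1387767_a_at, -0.92 for Col5a3, -0.02 for Col11a1 1384211_at, -0.94 for 1384931_at and -0.23 for 1392915_at. After quantile normalization it was -1.0 for Col5a3 and -2.29 for Col11a1 1392915_at. When 1 array was left out it was -0.45 to 0.62 for Col2a1 1387767_a_at and -0.65 to 0.62 for Col11a1 1384931_at, below 0 without control replicate 4 (-0.45 and -0.65) and without HP replicate 2 (-0.04 and -0.06). Of all alternatives run for single probe sets, 226 kept direction and side of the threshold, 32 lost the call, 4 gained a call and 11 turned sign. Quantile normalization made 4 member probe sets constant, which gives no value there. Median centring lowered every diet difference by 0.0611 thousandths, so that positive differences under this size turned negative. The cause of the other changes was not tested.

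The labels number the rats of each diet and do not say whether rats of the same number share a batch. The correlations of the deviations of same-numbered arrays were 0.121, 0.089, 0.063 and 0.001. HP replicates 1, 2 and 3 each correlated best with the control array of the same number, and HP replicate 4 with control replicate 3. Whether the numbers mark a batch cannot be told from the labels. With the block the adjusted p of the 10 probe sets was 0.039 to 0.13, and Col1a2 1370155_at, Col3a1 and Col24a1 kept their call, where 0.818% of all probe sets were called higher and 0.37% lower. No chain then had both of its probe sets called, and 9 of the pathway genes, 0 fibroblast, 1 macrophage and 1 injury marker passed as higher.

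The precision is limited by the 4 arrays per diet, by the choice of average rats and by the DFW scale, on which sizes cannot be read as folds. Several probe sets of a chain measure the same RNA on the same arrays and are no replicates of each other.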
